A study of Mus musculus with 4 samples.

Results

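The integrin alpha and beta chains of activated mouse regulatory T cells are described here across 4 Illumina bead arrays. The members were 10 named leukocyte integrin genes, 5 alpha chains (Itgae, Itga4, Itgal, Itgav and Itga6) and 5 beta chains (Itgb7, Itgb1, Itgb2, Itgb3 and Itgb8). They were found through the gene symbol that the platform annotation gives each probe. Of 25697 probes for 16593 named genes, 15 carried one of these symbols, and 9 of the 10 genes had at least 1 probe. No probe was listed under Itgal, the alpha chain of LFA-1, which was not analysed here. Itgae had 6 probes, Itgb1 had 2, and the other members with a probe had 1 each.

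The cells were sorted from spleens of C57Bl/6 mice aged 8 to 12 weeks by a green fluorescent reporter of Foxp3, the transcription factor that defines the regulatory lineage, and both groups received overnight activation with an antibody to CD3. The isotype group was cultured with rat IgG and the OX86 group with OX86, an agonist antibody against OX40, a costimulatory receptor of the TNF receptor family. Each group had 2 arrays, called isotype 1, isotype 2, OX86 1 and OX86 2, all on 1 slide. Nothing in the labels tells whether replicates were separate cultures or mice, and p-values therefore reflect only how these arrays varied, which may be technical.

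Integrins are surface receptors made of 1 alpha and 1 beta chain, and a chain reaches the cell surface only with a partner. They bind matrix proteins or ligands on other cells and are switched from a resting to an active shape by signals inside the cell. In regulatory T cells, the alpha-E chain (CD103), paired with beta-7, binds E-cadherin on epithelium. Alpha-4 beta-7 and alpha-4 beta-1 serve homing to gut and inflamed vessels, and alpha-V beta-8 releases active TGF-beta from its latent form.

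The arrays differed in how many probes they detected. Detection, a p under 0.05 against the negative control beads of the same array, was reached by 45.9% of probes on isotype 2 and by 50.2% to 53.2% on the others, and isotype 2 departed most from the rest, with an SD of 0.438 for its log2 distance to the average of the remaining arrays, against 0.307 to 0.318. Of the 15 integrin probes, 13 were detected on each of isotype 1, OX86 1 and OX86 2, and 11 on isotype 2. T-cell markers were detected for 8 of 8 genes with a probe, and their median log2 change was 0.04. Foxp3 had a log2 change of 0.08, with a 95% interval of -0.42 to 0.58. Tnfrsf4, which encodes OX40, had a log2 change of 0.15 (-0.32 to 0.63).

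The comparison of OX86 with isotype arrays asked whether triggering OX40 alters integrin transcripts of these cells. Itgae signals were higher in mean with OX86 at each of its 6 probes, and the Itgav signal was lower, while its tested beta partners and Itgb7 gave overlapping groups. None of these differences passed the test. All 13 integrin probes detected on at least 2 arrays were tested in limma together with all other such probes, and 0 of the 13 passed a Benjamini-Hochberg adjusted p of 0.05, as did 0 of 13338 probes (0%). The adjusted p was 0.9999 for each of the 13. At an unadjusted p under 0.05 there was 1 of 13 integrin probes, an Itgae probe, against 444 probes (3.33%) of all those tested.

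Values are given as normalized log2 signals, from the background correction and quantile normalization of limma's neqc function. A log2 change is the OX86 mean minus the isotype mean, with a 95% interval from the moderated variance of that fit. Probes differ in how well they bind, so no probe's signal is set against another's, and the abundance of an alpha chain cannot be ranked against that of a beta chain. The chains are paired instead by detection and by how each moved from array to array.

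**Figure D1:**
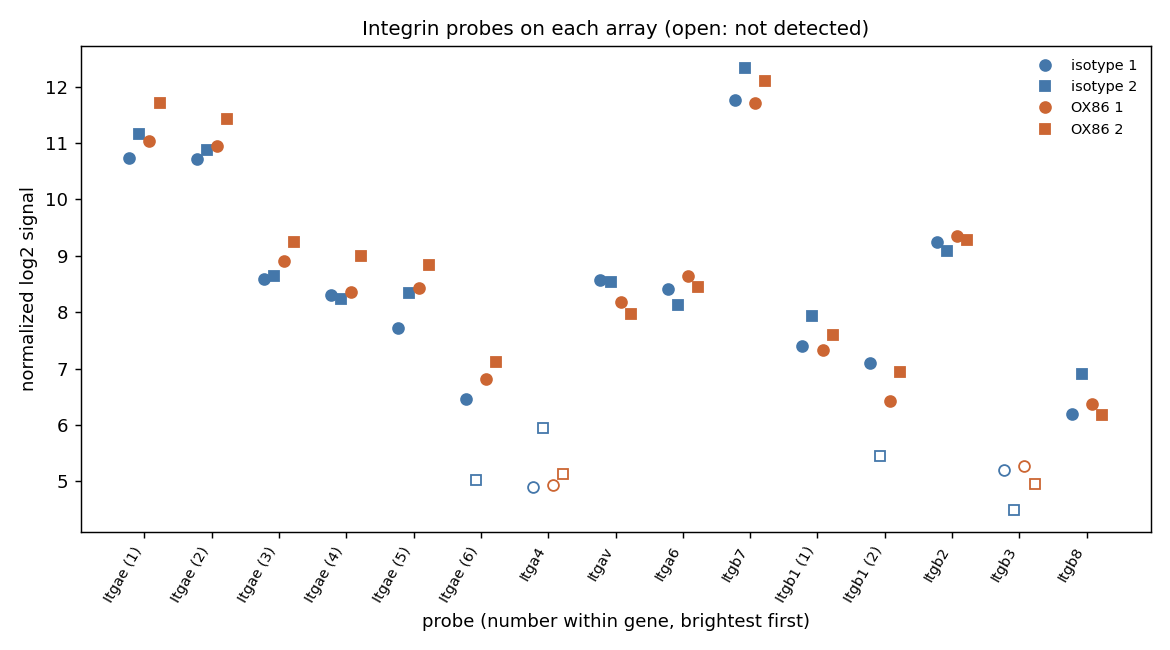
Normalized log2 signal (vertical axis) of the 15 integrin probes (horizontal axis, brightest probe of a gene first) on the 4 arrays, each point being 1 array and open points being below detection. The OX86 arrays sit above both isotype arrays for 5 of the 6 Itgae probes and below them for Itgav, and Itga4 and Itgb3 are open on all 4 arrays. Heights of different probes are not comparable.

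Itgae encodes the alpha-E chain, which pairs with beta-7 and marks a subset of regulatory T cells. Its brightest probe (ILMN_1217629) read 10.74 (isotype 1) and 11.16 (isotype 2), against 11.03 (OX86 1) and 11.70 (OX86 2). The groups overlapped, since OX86 1 lay below isotype 2. The change was 0.42 (95% interval -0.33 to 1.17), and the range within a group, 0.42 for isotype and 0.67 for OX86, was as large or larger.

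The next brightest probe (ILMN_2699898) read 10.72 and 10.87 in the isotype group, against 10.95 and 11.43 with OX86, a change of 0.39 (-0.20 to 0.99). The third (ILMN_2628900) read 8.59 and 8.64 against 8.91 and 9.24, a change of 0.46 (-0.06 to 0.99). Both probes had each OX86 array above each isotype array. For the fourth (ILMN_1249573) the values were 8.31 and 8.23 against 8.36 and 8.99, a change of 0.40 (-0.26 to 1.06). Here OX86 1 exceeded isotype 1 only narrowly, and OX86 2 stood apart. The fifth (ILMN_2628899) read 7.71 and 8.35 against 8.43 and 8.83, a change of 0.60 (-0.12 to 1.33).

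The dimmest Itgae probe (ILMN_2656090) gave the largest change of the 6 and, in the limma fit reported, the only unadjusted p under 0.05. It read 6.46 and 5.02 in the isotype group, against 6.82 and 7.12 with OX86, a change of 1.23 (0.05 to 2.40) with an unadjusted p = 0.0437 in limma. On isotype 2 it was not detected, with a detection p of 0.620, so the change includes a value below detection. Without isotype 2 its change was 0.53. Without background correction and in the authors' processed values it was 0.33, below the 0.38 of the brightest probe. In these settings 4 of the 6 Itgae probes had an unadjusted p under 0.05 in limma. Of all tested probes, 1.47% and 1.46% did so, and no integrin probe passed the adjusted threshold.

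Across its 6 probes, Itgae thus had changes from 0.39 to 1.23, with 5 of 6 probes giving OX86 arrays above isotype arrays, against 13.9% of all tested probes. The probes read the same 4 RNA samples, so their agreement bears on the measurement of each sample and adds no replicates. OX86 2 was the highest array at all 6 probes, and isotype 1 was the lowest at 4. Of the 6 probes, 3 were annotated to an Itgae transcript that the RefSeq table still lists (ILMN_1217629, ILMN_2699898 and ILMN_1249573) and 3 to one that it does not. Without background correction the 6 changes ran from 0.24 to 0.38.

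The size of the Itgae change rested on single arrays. Without OX86 2 the change at the brightest probe was 0.09 and at the fourth 0.09, while the other 4 probes kept 0.15 to 1.06. Without isotype 1 the brightest probe had 0.21, without OX86 1 it had 0.75, and without isotype 2 it had 0.63. All 6 probes stayed above 0 with each array left out. In the authors' processed values, which are linear intensities, the brightest probe read 1966 and 2541 in the isotype group, against 2347 and 3591 with OX86, the same overlap of OX86 1 with isotype 2.

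**Figure D2:**
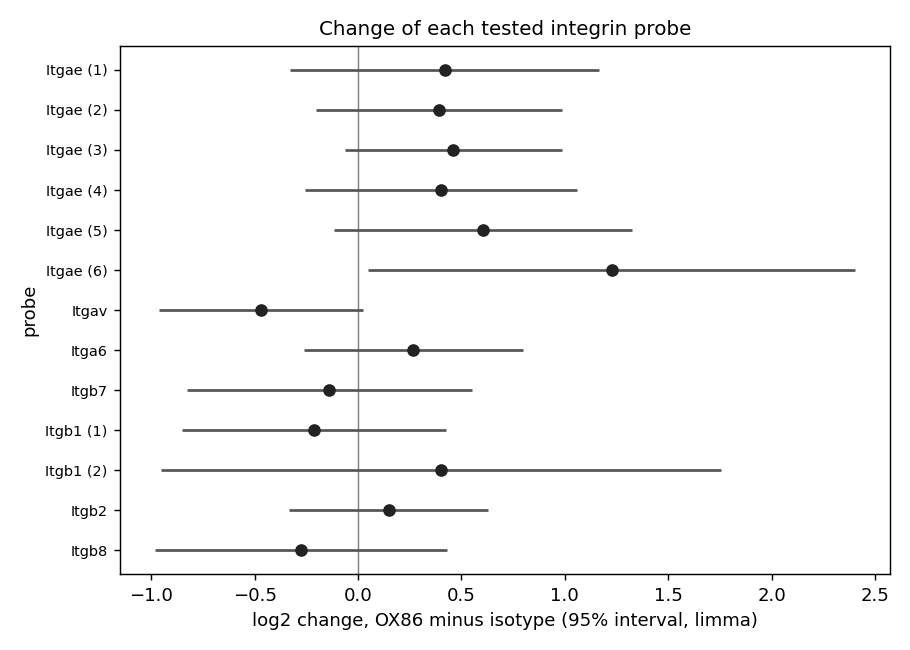
Log2 change, OX86 minus isotype, of the 13 tested integrin probes, with points for the estimates and lines for the 95% intervals from limma (2 arrays a group). All 6 Itgae points lie above 0 and the Itgav point below, and 12 of the 13 intervals include 0.

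Itgb7, the beta-7 chain, pairs with alpha-E (CD103) and, in the gut-homing receptor, with alpha-4. Its probe (ILMN_1227434) read 11.76 and 12.33 in the isotype group, against 11.70 and 12.10 with OX86. The groups overlapped, and the change was -0.14 (-0.83 to 0.55). Its sign was not stable, with 0.14 without isotype 2, 0.07 without OX86 1 and -0.43 without isotype 1. Median scaling in place of quantile normalization gave 0.01, where the median of all tested probes moved to 0.12, so that relative to that median it was -0.11.

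Within an array, the log2 difference between the brightest Itgae probe and the Itgb7 probe compares how the partners moved, with the mean over the arrays set to 0. It was -0.20 for isotype 1, -0.35 for isotype 2, 0.14 for OX86 1 and 0.42 for OX86 2. Both OX86 arrays lay above both isotype arrays, by 0.56 in mean. A two-sided exact permutation test gave p = 0.333, the smallest that 2 against 2 arrays allow, and 0.889 after adjustment over 4 pairs. Leaving out an array gave 0.42 to 0.68. The alpha-E and beta-7 signals were both higher on isotype 2 than on isotype 1 and on OX86 2 than on OX86 1.

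**Figure D3:**
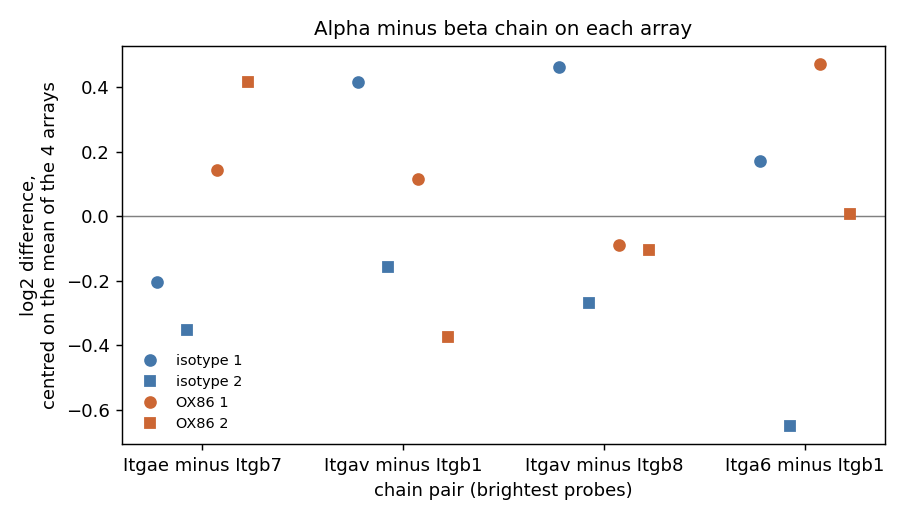
Log2 difference between the alpha and the beta chain of 4 heterodimers (brightest probes), on each array, centred on the mean of the 4 arrays. Both OX86 points lie above both isotype points for Itgae minus Itgb7, by 0.56 in mean, and the groups overlap for the other pairs in these values. Each Itgav pair separated the groups under at least 1 other processing (p = 0.333, exact permutation test).

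Itgav encodes the alpha-V chain, which pairs with several beta chains and binds matrix proteins and latent TGF-beta. Its probe (ILMN_1238119) read 8.57 (isotype 1) and 8.53 (isotype 2), against 8.18 (OX86 1) and 7.96 (OX86 2). The OX86 values were both lower than either isotype value, the only tested integrin probe with this order. The change was -0.47 (-0.96 to 0.02), with an unadjusted p = 0.0578 in limma. The isotype arrays differed by 0.04 and the OX86 arrays by 0.22, both less than the difference between the group means.

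The Itgav value kept its sign with each array left out, from -0.58 to -0.36. In the authors' processed values the probe read 638.5 and 628.2 in the isotype group, against 550.7 and 509.4 with OX86. The log2 change was -0.26 on that scale, which keeps the background signal, and the same without background correction. Its unadjusted p in limma fell under 0.05 in both of these settings, and also with an offset of 50, with a detection p under 0.01 and among probes detected on all arrays, while the adjusted p stayed at 0.9997 or above.

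The beta partners of alpha-V were measured less well. Itgb8, whose dimer with alpha-V acts on latent TGF-beta, had a probe (ILMN_2980316) that read 6.20 and 6.90 in the isotype group, against 6.37 and 6.17 with OX86. The groups overlapped, and the change was -0.28 (-0.98 to 0.43). It was detected on each array, with detection p-values of 0.0025 to 0.015, yet the change was 0.07 without isotype 2 and -0.59 without isotype 1. Itgb3, known as the beta chain of the platelet fibrinogen receptor and of the vitronectin receptor, was not detected on any array, with detection p-values of 0.286 to 0.999. Its probe (ILMN_3002896) read 5.20 and 4.50 against 5.27 and 4.95.

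Itgb1, the beta-1 chain shared by the receptors for fibronectin, laminin and VCAM-1, had 2 probes of opposite sign. The brighter (ILMN_2609304) read 7.41 and 7.94 in the isotype group, against 7.33 and 7.60 with OX86, a change of -0.21 (-0.85 to 0.43). The other (ILMN_2789077) read 7.11 and 5.45 against 6.43 and 6.94, a change of 0.40 (-0.95 to 1.76). Groups overlapped at both. The dimmer probe was not detected on isotype 2, with a detection p of 0.216, and without that array its change was -0.44 and that of the brighter probe 0.05. No direction can therefore be given for Itgb1.

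The difference between Itgav and Itgb1 moved by -0.26 in mean with OX86, and that between Itgav and Itgb8 by -0.19. Both pairs had overlapping groups, with p = 0.667 and p = 1 in the exact permutation test, and both turned above 0 without isotype 1, to 0.02 and 0.14. The overlap depended on the processing. Itgav minus Itgb8 separated the groups at -0.18 without background correction and in the authors' values, and Itgav minus Itgb1 at -0.57 with the mean over the Itgb1 probes, each with p = 0.333 in the exact permutation test, the smallest possible.

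Itga6 encodes the alpha-6 chain, which forms a laminin receptor with beta-1. Its probe (ILMN_1231492) read 8.42 and 8.13 in the isotype group, against 8.64 and 8.44 with OX86. The OX86 arrays lay above the isotype arrays, by a margin of 0.03 between the nearest pair. The change was 0.27 (-0.26 to 0.80), and from 0.12 without isotype 2 to 0.40 without isotype 1. The difference between Itga6 and Itgb1 moved by 0.48, with p = 0.667 in the exact permutation test, from 0.07 without isotype 2 to 0.87 without isotype 1.

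Itgb2 encodes the beta-2 chain, which pairs with alpha-L in LFA-1 on T cells and with alpha-M and alpha-X on myeloid cells. Its probe (ILMN_1242661) read 9.24 and 9.09 in the isotype group, against 9.35 and 9.28 with OX86. Both OX86 arrays were above both isotype arrays, by 0.15 in mean (-0.33 to 0.63). The change was 0.07 without isotype 2 and 0.22 without isotype 1. The myeloid partner genes Itgam and Itgax were each detected on 0 of 4 arrays.

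Itga4 encodes the alpha-4 chain, the partner of beta-1 and beta-7 in homing receptors. Its single probe (ILMN_2635342) was not detected on any array, with detection p-values of 0.0677 on isotype 2 and 0.424 to 0.711 on the others. It read 4.90 and 5.95 in the isotype group, against 4.94 and 5.13 with OX86, below the level at which a change could be measured. With Itga4 and Itgb3 below detection and Itgal without a probe, 4 of the 8 heterodimers considered could not be compared.

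Counted by gene at the brightest probe, 3 of the 7 tested chains were higher in mean with OX86 and 4 were lower, with a median log2 change of -0.14 against 0.00 over 9361 genes (by probe, 9 of 13 were higher, against 51% of all tested probes). The median size of change was 0.27 for the 7 chains and 0.14 over all genes. Groups did not overlap for 2 chains above (Itga6 and Itgb2) and 1 below (Itgav). Counted by probe, OX86 arrays were above for 7 of 13, against 13.9% of all tested probes, and below for 1, against 13.1%. Of those 7 probes, 5 belong to Itgae, so the count by probe mostly repeats that gene.

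**Figure D4:**
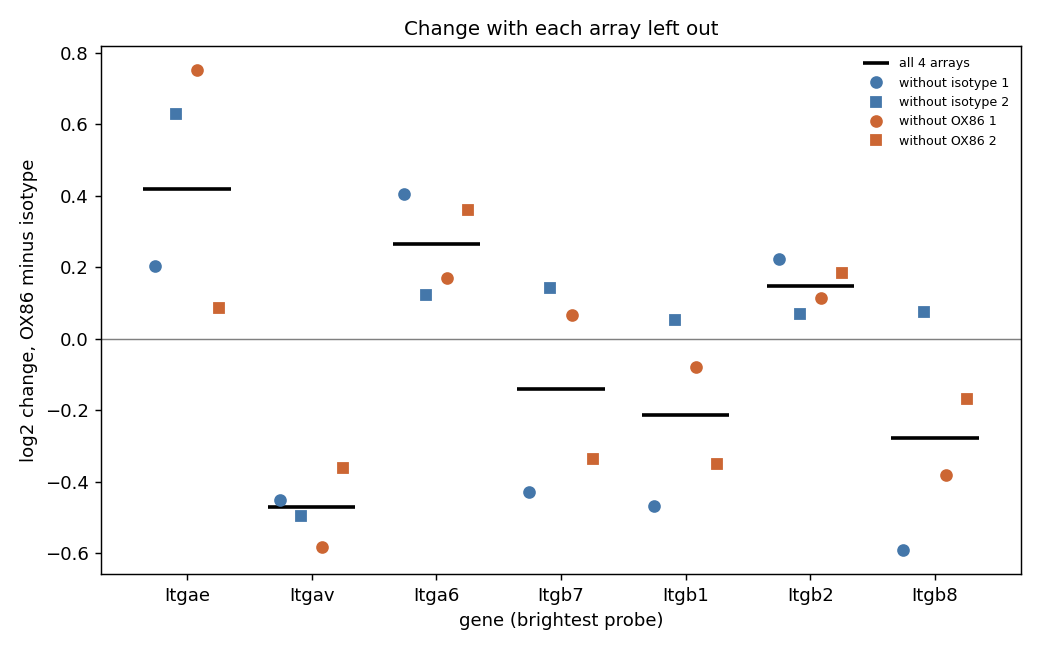
Log2 change, OX86 minus isotype, of the 7 tested chains at the brightest probe, with all 4 arrays (black bars) and with each array left out in turn (points). Itgav stays between -0.58 and -0.36, Itgae ranges from 0.09 to 0.75, and Itgb7, Itgb1 and Itgb8 cross 0.

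The other integrin chains were measured for few genes. Of 14 with a probe, 6 were detected on at least 2 arrays and tested, 4 higher and 2 lower in mean, and 0 passed. Their median log2 change was 0.12. The platelet chain Itga2b had 0.36 (-0.16 to 0.88), Itga9 0.20 (-0.63 to 1.03) and the fibronectin receptor chain Itga5 0.17 (-0.78 to 1.13), while Itgb6 had -0.08 (-0.86 to 0.69). Each of these 4 was below detection on isotype 2, as were 5 of the 6 in all. Itga9 and Itgb6 were below detection on OX86 1 as well. The changes of these 4 therefore include values below detection.

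Genes that switch integrins to the active state or link them to the cytoskeleton did not move in 1 direction. Of 21 tested, 8 were higher and 13 lower in mean, 0 passed in either direction, and the median log2 change was -0.03. Rasgrp2, an exchange factor that activates the small GTPase Rap1 upstream of integrins, read 5.89 and 5.62 in the isotype group, against 6.60 and 6.64 with OX86. Its change was 0.86 (0.36 to 1.37), with an unadjusted p = 0.00623 in limma and an adjusted p of 0.9999, and it was below detection on isotype 2. On isotype 1 its detection p was 0.025. Rasgrp2 was the only gene of the 21 at an unadjusted p under 0.05 in limma, against 3.33% of all tested probes.

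The focal adhesion adaptor Pxn (paxillin) had a change of 0.34 (-0.20 to 0.89), and Tln1, encoding talin, which binds beta-chain tails, had 0.40 (-0.33 to 1.14). The Tln1 groups overlapped, at 6.91 and 6.15 in the isotype group against 6.88 and 6.98 with OX86. Its detection p on isotype 2 was 0.035. The adaptor Lims1 had -0.52 (-1.46 to 0.42), with OX86 1 below detection. Rap1b, which encodes a Rap1 GTPase, had -0.00 (-0.47 to 0.47), and Fermt3, encoding kindlin-3, -0.11 (-0.59 to 0.38). Groups did not overlap for 3 of the 21 above and 1 below, against 13.9% and 13.1% of all tested probes.

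**Figure D5:**
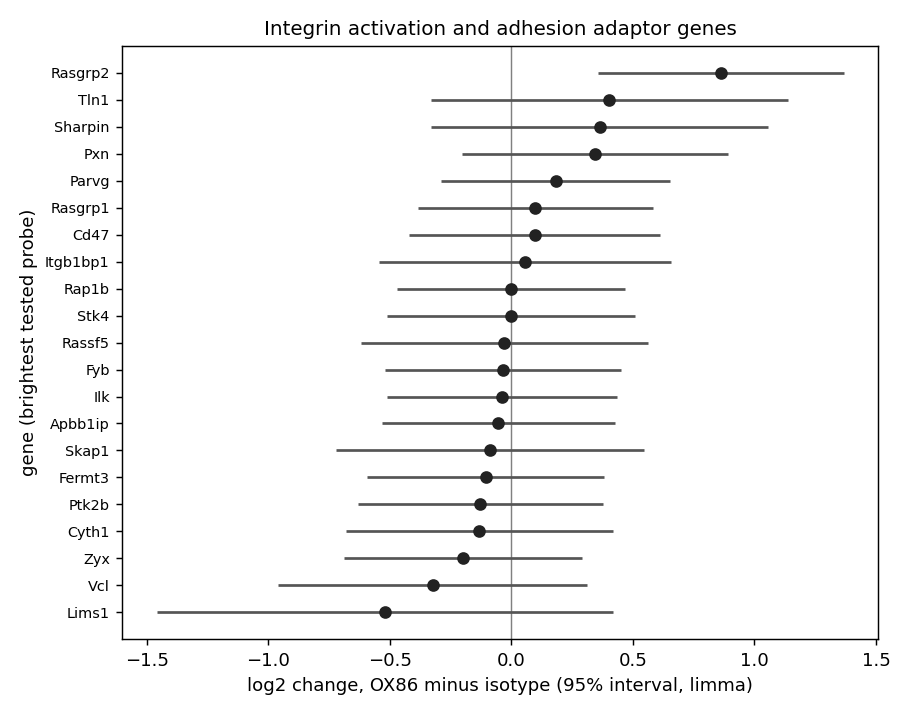
Log2 change, OX86 minus isotype, of the 21 tested genes of integrin activation and adhesion, with points for the estimates and lines for the 95% intervals from limma (2 arrays a group). Rasgrp2 at 0.86 is the only gene whose interval leaves out 0, and the others lie between -0.52 and 0.40.

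Integrin ligands were detected for few genes. Of 12 with a probe, 6 were tested, 2 higher and 4 lower, and 0 passed, with a median log2 change of -0.10. Tgfb1, whose latent form is the ligand of alpha-V beta-8, had 0.25 (-0.31 to 0.82), and Icam1, the ligand of LFA-1, had -0.21 (-0.73 to 0.30). Cdh1, encoding the E-cadherin bound by CD103, had -0.22 (-0.87 to 0.43), and the matrix-bound regulator Ltbp1 had 0.19 (-0.74 to 1.12). Cdh1 and Ltbp1 were each detected on only 2 arrays. Vcam1 and Madcam1, the vascular ligands of the alpha-4 integrins, were detected on 0 of 4 arrays.

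TGF-beta signalling is known to raise Itgae transcription in T cells, and genes of that pathway and of lymphoid homing were read beside it. Of 9 tested, 6 were higher and 3 lower in mean, 0 passed, and the median log2 change was 0.06. The homing receptor Ccr7 had 0.31 (-0.38 to 1.01) and the quiescence factor Klf2 0.19 (-0.30 to 0.67). The signal transducers Smad2 and Smad3 had -0.12 (-0.63 to 0.38) and -0.07 (-0.55 to 0.41).

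Cells other than regulatory T cells also carry these chains, and in bulk RNA fewer cells of a type and less RNA per cell cannot be told apart. CD8 T cells and some dendritic cells express Itgae. Of 6 markers of NK and CD8 T cells, 3 were detected on all 4 arrays, with log2 changes of -0.10 for Cd8b1, 0.21 for Eomes and 0.23 for Klrd1, and Cd8a, Klrb1c and Ncr1 were detected on 0. The Cd8b1 probe gave deposited signals of 770 to 1291. The summed deposited signal of the list was 2232 to 3063 on the isotype arrays and 2661 to 2824 on the OX86 arrays. Of 7 myeloid and dendritic-cell markers with a probe, 1 was tested (Siglech, at -0.03), and the summed signal was 2379 to 3372 against 2678 to 3249. The Siglech probe was detected on all 4 arrays, with deposited signals of 764 to 1640. Platelet and erythroid markers summed to 2303 to 4445 against 2723 to 3169, and B-cell markers to 1205 to 1354 against 1321 to 1322. In each of these lists the range of the OX86 arrays lay within that of the isotype arrays, and isotype 2, whose median signal was also the lowest, had the lowest sum. The same held for the T-cell markers, at 46194 to 98298 against 73196 to 86210. The sums are not normalized and follow how bright each array was, so they cannot show whether the share of other cells differed. After normalization, the mean log2 signal of the NK and CD8 T-cell markers was 6.51 and 6.53 in the isotype group, against 6.52 and 6.55 with OX86. That of the myeloid and dendritic-cell markers was 5.98 and 5.85, against 5.89 and 5.94. For the B-cell markers it was 5.99 and 6.02, against 6.13 and 5.97. For the platelet and erythroid markers it was 6.44 and 6.06, against 6.23 and 6.10. Among B-cell markers, Ms4a1 had a log2 change of 0.81 (0.13 to 1.49) near the detection limit, while Cd79a had -0.26 (-0.96 to 0.43). The part of such cells in the Itgae and Itgav values was not tested.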

How the data were processed

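Total RNA of 4 samples was amplified into biotinylated cRNA and hybridised to Illumina bead arrays, per the labels. The deposited table gave a linear signal intensity and a detection p-value for each probe and array. The submitters' processing notes name BeadStudio without its settings. No intensity was below 194.3, so the background was still in them. The authors' processed intensities, also deposited, matched a plain quantile normalization of the first table to within 1% for 99.99% of values.

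Background correction and quantile normalization used the neqc function (limma 3.58.1, R 4.3.3), with the negative controls' mean and SD inferred from detection p-values, an offset of 16 and log2. Probes with a detection p under 0.05 on at least 2 of 4 arrays were tested, 13338 of 25697. OX86 was compared with isotype by a two-sided moderated test without covariates (lmFit, eBayes) and Benjamini-Hochberg adjustment over all tested probes and a threshold of 0.05. The calculation was tested on simulated data. The number of arrays limits the precision.

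Gene symbols came from the platform annotation, and a gene is given by its brightest tested probe unless probes are named. All 10 members were named whatever their result, with Tnfrsf4 and Foxp3 and up to 4 genes of each related list with the smallest unadjusted p. Rap1b, Fermt3 and the genes given as detected on 0 arrays (Vcam1, Madcam1, Itgam, Itgax, Cd8a, Klrb1c and Ncr1) were named after their values were seen. The members and lists were chosen with earlier results of these data known. Alternatives were other background corrections, normalizations, offsets and detection filters, array weights, a replicate term, the mean over probes, and each array left out with renormalization. Cross-hybridisation was not assessed, since probe sequences were not used here.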

Additional observations from a re-analysis of the deposited data

How the results depend on the processing

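Under each of 13 alternatives the count of probes past the adjusted threshold in limma was 0, for all probes and for integrin probes. The count of all probes at an unadjusted p under 0.05 was 444, and it was 196 (no background correction), 195 (authors' processed values), 102 (median scaling), 236 (probes detected on all arrays), 275 (detection p under 0.01) and 865 (no filter). Such counts are not given for the fits without an array, each with a lone array in 1 group. Integrin probes in that count numbered 1 in the fit reported and 5 of 13 (4 Itgae and Itgav) without background correction or in the authors' values, where all probes gave 1.47% and 1.46%. They numbered 2 (Itgae and Itgav) with an offset of 50, where all probes gave 2.53%, and with a detection p under 0.01, where all gave 2.5%. Among probes detected on all arrays they numbered 1 (Itgav), against 2.25% of all those probes. With median scaling, with no filter and with array weights they numbered 1 each (Itgae), against 0.765%, 3.37% and 3.26% of all probes. Of 98 values of the 7 chains under the alternatives, 92 kept their direction and 6 reversed. Many of these values could not reverse. The detection filters, array weights and replicate term left every log2 change as in the fit reported. The mean over probes did so for chains with 1 tested probe. The authors' processed values nearly repeated those without background correction. Leaving out single arrays gave -0.43 to 0.14 for Itgb7, -0.47 to 0.053 for Itgb1, -0.44 to 1.13 for the second Itgb1 probe (ILMN_2789077), -0.59 to 0.075 for Itgb8, -0.55 to 0.016 for Itgav minus Itgb1 and -0.57 to 0.14 for Itgav minus Itgb8. Median scaling turned Itgb7 to 0.0088, and the mean of both probes turned Itgb1 to 0.094. The median of all tested probes was 0.12 under median scaling. The cause of these reversals was not tested. With the replicate number as a block, 0 probes passed, 522 had an unadjusted p under 0.05, and 2 of those were Itgae probes. Same-numbered arrays had deviations correlated at 0.07 across probes, from 2 pairs only, which cannot tell whether same-numbered samples were paired. Each fit without an array left a group with a lone array, assumed to vary like the other group. Signal near background limits Itga4, Itgb3, Itgb8 and the dimmer Itgae and Itgb1 probes.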
